A study of Mus musculus with 6 samples.

Results

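The genes described here are those named for centrosomal proteins (Cep, 37 genes), intraflagellar transport subunits (Ift, 14 genes) and Bardet-Biedl syndrome proteins (Bbs, 8 genes). They were taken by symbol from the gene count table, and a gene was kept where its counts summed to at least 60 over the 6 libraries. That gave 59 genes of the 17191 in the table. Cep126 was the 1 gene with a matching name that missed the minimum, with a summed count of 37, and Bbs1 was the lowest gene kept, with 169. All 59 passed the filter on low counts that precedes the test below.

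CEP proteins build the centriole, hold centriole pairs together, organise the microtubule-nucleating material around them and anchor the mother centriole to the membrane when it becomes the basal body of a cilium. IFT proteins form particles that motors carry along the ciliary axoneme, with IFT-B linked to transport towards the tip and IFT-A to the return and to the import of membrane proteins. BBS proteins form the BBSome, a coat that moves membrane receptors in and out of the cilium, and a chaperonin-like group that helps to assemble it. Cycling cells duplicate their centrioles once per cycle, while most leukocytes are described as lacking primary cilia.

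The study grew subcutaneous tumours of CT26, a mouse colorectal carcinoma line, in female BALB/c mice aged 6 to 8 weeks. Once tumours measured 100 to 200 mm3, mice were assigned to oral vehicle or to oral TP-18, a compound known here by its code name, at 50 mg/kg once a day for 3 weeks. Bulk RNA sequencing gave 3 libraries for each group. The text of the labels differs on what was sequenced: the design text names macrophages sorted by flow cytometry as CD11b+F4/80+CD206+, the treatment protocol names CD11b+ cells taken with magnetic beads, and the sample annotations name the CT26 line. All groups carried the same tumour line, and the labels name no transgene. No label states that the 3 libraries of a group are 3 mice, so the p-values below measure the spread between libraries, which may be technical.

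Total counts ran from 16371128 to 17597645 per library. The genes for the CD11b, F4/80 and CD206 antigens were present in every library: Itgam was at 802 to 1318 CPM with vehicle and 815 to 1018 CPM with TP-18, Adgre1 at 99.9 to 295 CPM with vehicle and 108 to 256 CPM with TP-18, and Mrc1 at 720.1 to 1451 CPM with vehicle and 629 to 898 CPM with TP-18. CPM here is the count relative to the library size after TMM scaling, edgeR's trimmed mean method. Of the tumour line's epithelial list, Krt20 was at 338 to 521 CPM with vehicle and 239 to 506 CPM with TP-18, and Epcam did not exceed 1.07 CPM. Multiciliated cell markers were low: 4 of the 13 in the table passed the filter, and the 13 summed to 7.99 to 18.4 CPM with vehicle and 8.35 to 16 CPM with TP-18. Vehicle 1 correlated across genes more closely with TP-18 3 (r = 0.980, log2 CPM) and TP-18 1 (r = 0.977) than with vehicle 2 (r = 0.961) or vehicle 3 (r = 0.967). TP-18 2 was closer to vehicle 2 (r = 0.972) and vehicle 3 (r = 0.966) than to TP-18 3 (r = 0.962), and closest to TP-18 1 (r = 0.979). Results for the families are therefore also given without each of these libraries.

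In the comparison of TP-18 with vehicle, most CEP genes had higher values with TP-18, the IFT and BBS families had smaller medians, and no single member passed the test. edgeR's quasi-likelihood test with Benjamini-Hochberg adjustment over 12721 genes called 0 of the 59 members at an adjusted p under 0.05, beside 0.110% of all genes. At an unadjusted p under 0.05 the same fit gave 12 of the 59 members higher and 2 lower, beside 7.56% and 8.70% of all genes. All but 1 of them were CEP genes. DESeq2 called 1 member, Cep85l, lower with TP-18, a share below that over all genes, of which it called 1.30% higher and 2.73% lower. The lowest adjusted p among the members was 0.150. Because the RNA was bulk, fewer cells of a type and less RNA per cell cannot be told apart in any of these values.

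Over the 37 CEP genes the median log2 fold change was 0.38, against 0.02 over all tested genes, and 28 of 37 (75.7%) lay above 0, against 6695 of 12721 (52.6%). At an unadjusted p under 0.05, 11 of the 37 (29.7%) were higher with TP-18, beside 7.56% of all genes, and 2 (5.41%) were lower, beside 8.70%. Every TP-18 library lay above every vehicle library for 18 of the 37 (48.6%), beside 11.6% of all genes, and below for 2 (5.41%), beside 11.7%. These shares are descriptions of the family, which was not tested as a set. The median was 0.43 without vehicle 1, 0.42 without TP-18 2, 0.22 without vehicle 2 and 0.22 without TP-18 3. The number of CEP genes at an unadjusted p under 0.05 was 12, 11, 9 and 8 in these fits, and 6 without TP-18 1.

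The 14 IFT genes had a median of 0.16, with 10 of 14 above 0. Of them, 1 (7.14%) was higher at an unadjusted p under 0.05, near the 7.56% of all genes, and 3 (21.4%) had groups apart and higher with TP-18, beside 11.6%. Their median was 0.08 without vehicle 3 and 0.09 without TP-18 1, was 0.15 without vehicle 1 and 0.16 without TP-18 2, and no IFT gene had an unadjusted p under 0.05 without vehicle 2 or without TP-18 1. The 8 BBS genes had a median of 0.19, with 6 of 8 above 0, no gene at an unadjusted p under 0.05 and none whose groups were apart. That BBS median moved from 0.33 without vehicle 1 to 0.07 without vehicle 2 and 0.08 without vehicle 3, and was 0.14 without TP-18 2.

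The directions depend in part on the scaling. With library totals in place of TMM factors the median of all genes moved by 0.18, and 9130 of 12721 genes (71.8%) lay above 0. The CEP split then became 33 of 37 above 0 with a median of 0.56, the IFT split 13 of 14 with a median of 0.34, and the BBS split 8 of 8 with a median of 0.36, against a median of 0.20 over all genes. The 9 members that turned from below to above 0 were Cep63, Cep350, Cep170b, Cep20, Ift43, Ift27, Ift46, Bbs5 and Bbs7, Cep95 moved off 0, and Cep295nl, Cep83, Cep85l, Cep43 and Ift57 lay below 0 with both scalings. CEP transcripts were also longer than most, with a median length of 4615 nt against 3521 nt for all tested genes and 3565 nt for IFT, and a GC content of 46.2% against 49.8%. After removal of the trend of fold change on GC and length, the CEP median was 0.30, the IFT median 0.19 and the BBS median 0.16, against 0.03 for all genes.

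**Figure D1:**
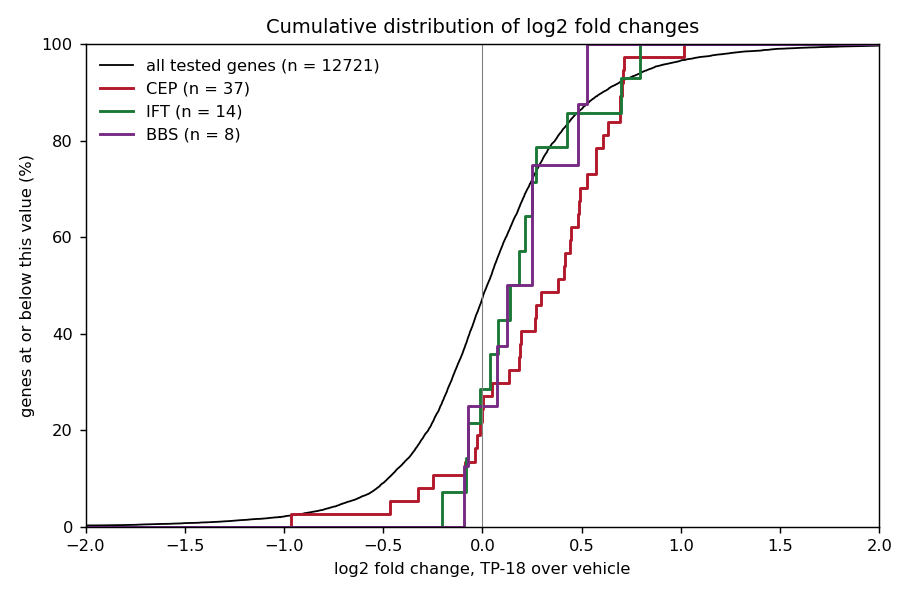
Cumulative share of genes (%, vertical axis) at or below each log2 fold change of TP-18 over vehicle (horizontal axis), for all 12721 tested genes (black) and the CEP, IFT and BBS families. The CEP line lies to the right of the black line over most of its length, with medians of 0.38 and 0.02, and the IFT and BBS medians are 0.16 and 0.19.

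By level, the families were low to moderate. FPKM, the deposited value per length of transcript and per total of the library, allows levels to be compared between genes. It rests on 1 length per gene, so the rankings below depend on that length. The length was 14647 nt for Cep70, 12902 nt for Ift140 and 10454 nt for Bbs12. By CPM over the 6 libraries, Ift140 (16.9 to 33.6) was above Ift88 (7.56 to 10.4). The mean over 6 libraries had a median of 4.10 FPKM over CEP genes, 6.28 over IFT genes and 2.43 over BBS genes, against 7.70 over all tested genes. The highest CEP gene was Cep83 at 22.1 FPKM, followed by Cep43 at 14.2, Cep55 at 12.5 and Cep170b at 12.05, and the lowest were Cep97 at 0.710 and Cep70 at 0.725. Among IFT genes Ift43 was at 23.8 FPKM, Ift27 at 14.6, Ift52 at 14.6 and Ift20 at 13.1, with Ift88 at 2.06 and Ift140 at 2.03 the lowest. Bbs2 led its family at 9.21 FPKM, ahead of Bbs5 at 3.17, Bbs7 at 2.76 and Bbs9 at 2.62, and Bbs12 at 0.414 and Bbs1 at 0.282 were lowest.

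The GO terms that the authors deposited with the table overlap between the families. Of the 37 CEP genes, 33 carried centrosome and 23 centriole, terms held by 3.69% and 0.82% of tested genes, while 8 carried cilium. All 14 IFT genes carried cilium and 11 carried centrosome, with 11 annotated to particle B and 3 to particle A. Of the 8 BBS genes, 7 carried cilium, 3 centrosome and 6 the BBSome.

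**Figure D2:**
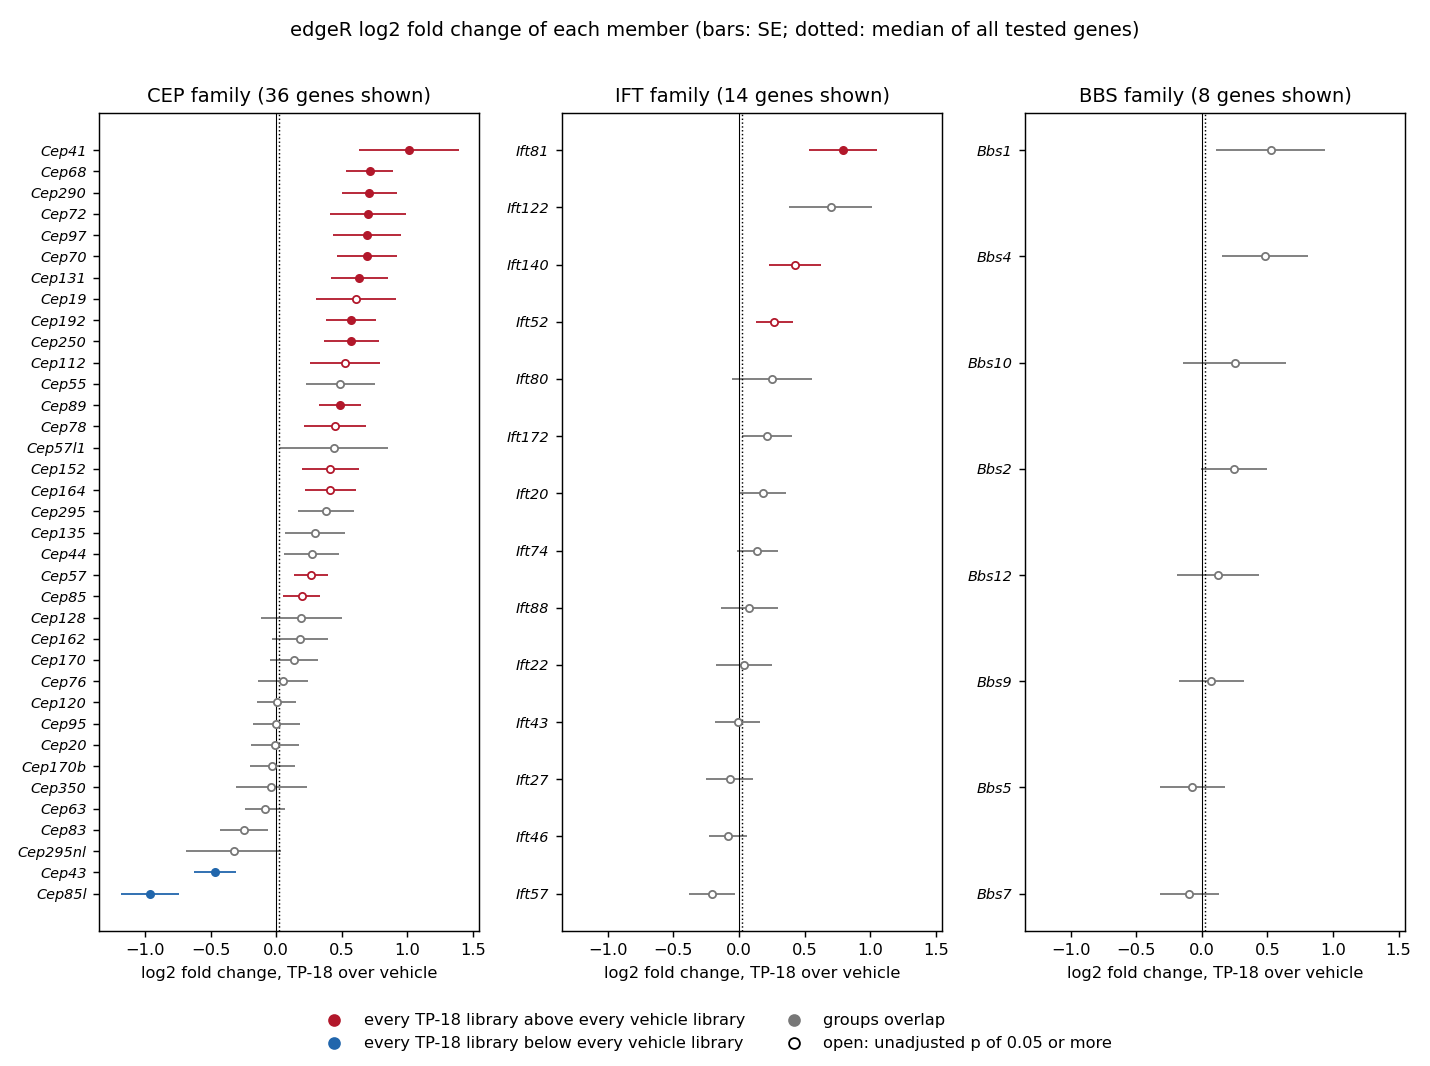
Log2 fold change of TP-18 over vehicle for 36 of the 37 CEP genes and all 14 IFT and 8 BBS genes (horizontal axis; bars are SE from edgeR; filled points have an unadjusted p under 0.05; the dotted line is the median of all tested genes). Red points are the 17 CEP and 3 IFT genes shown with every TP-18 library above every vehicle library. Blue points are Cep85l and Cep43, with every TP-18 library below, all on TMM-scaled CPM. Of all tested genes, 11.6% lay above and 11.7% below in this way.

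Among CEP genes, the 5 of the centriole linker and pericentriolar material had the highest median log2 fold change of the role groups with more than 1 gene. Their groups were all apart, 4 higher and 1 lower with TP-18, beside 11.6% and 11.7% of all genes, and the median was 0.69. Cep68 and Cep250 (also called C-Nap1) belong to the linker that ties the proximal ends of the centriole pair. Cep68 (chr11:20227037-20249429, minus strand, GRCm38, as are all gene positions below) was at 12.6, 11.2 and 11.04 CPM with vehicle and 17.4, 17.1 and 22.5 CPM with TP-18. The vehicle libraries lay close together and all were below the TP-18 libraries, of which TP-18 3 was highest, with a log2 fold change of 0.71 ± 0.18 (SE) and an adjusted p of 0.177. Cep250 (chr2:155956458-155998900, plus strand) was at 89.9, 51.4 and 77.9 CPM with vehicle and 101, 106 and 119 CPM with TP-18. Vehicle 2 was lowest by a wide margin and the groups did not overlap, with a log2 fold change of 0.57 ± 0.21 (SE) and an adjusted p of 0.255, and of 0.36 without vehicle 2. Of its exons, 1149 bases overlap 6430550D23Rik on the opposite strand, and since use of strand in counting is not given, reads of both genes cannot be separated there.

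Cep70 and Cep72 are proteins of the pericentriolar region that take part in microtubule organisation. Cep70 (chr9:99243367-99300404, plus strand) was at 8.91, 6.92 and 8.13 CPM with vehicle and 12.7, 10.1 and 15.8 CPM with TP-18. Cep72 (chr13:74036500-74062299, minus strand) was at 3.87, 3.27 and 4.03 CPM with vehicle and 6.57, 4.23 and 7.37 CPM with TP-18. Exons of other genes overlap 266 bases of Cep70 on the opposite strand. Both genes were highest in TP-18 3, and for Cep72 the gap between TP-18 2 and the highest vehicle library was small. Cep70 had a log2 fold change of 0.69 ± 0.23 (SE) and an adjusted p of 0.232, and Cep72 had a log2 fold change of 0.70 ± 0.29 (SE) and an adjusted p of 0.298.

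Cep85l, whose product is a pericentriolar protein with a role in neuronal migration, had the lowest p of all members and the opposite direction. It lies at chr10:53273443-53379947 on the minus strand and was at 26.8, 34.1 and 42.5 CPM with vehicle and 16.1, 21.5 and 15.3 CPM with TP-18. All 3 TP-18 libraries were below the lowest vehicle library, vehicle 1. It showed a log2 fold change of -0.96 ± 0.22 (SE) and an adjusted p of 0.150 in edgeR, while DESeq2 gave -0.98 and an adjusted p of 0.00747. Leaving out each library in turn gave -1.14 to -0.80. Exons of Gm47641 and Pln overlap 580 of its exonic bases on the other strand. Its paralogue Cep85, listed with the procentriole genes, was at 25.3 to 30.4 CPM with vehicle and 30.5 to 33.9 CPM with TP-18, with a log2 fold change of 0.19 ± 0.14.

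**Figure D3:**
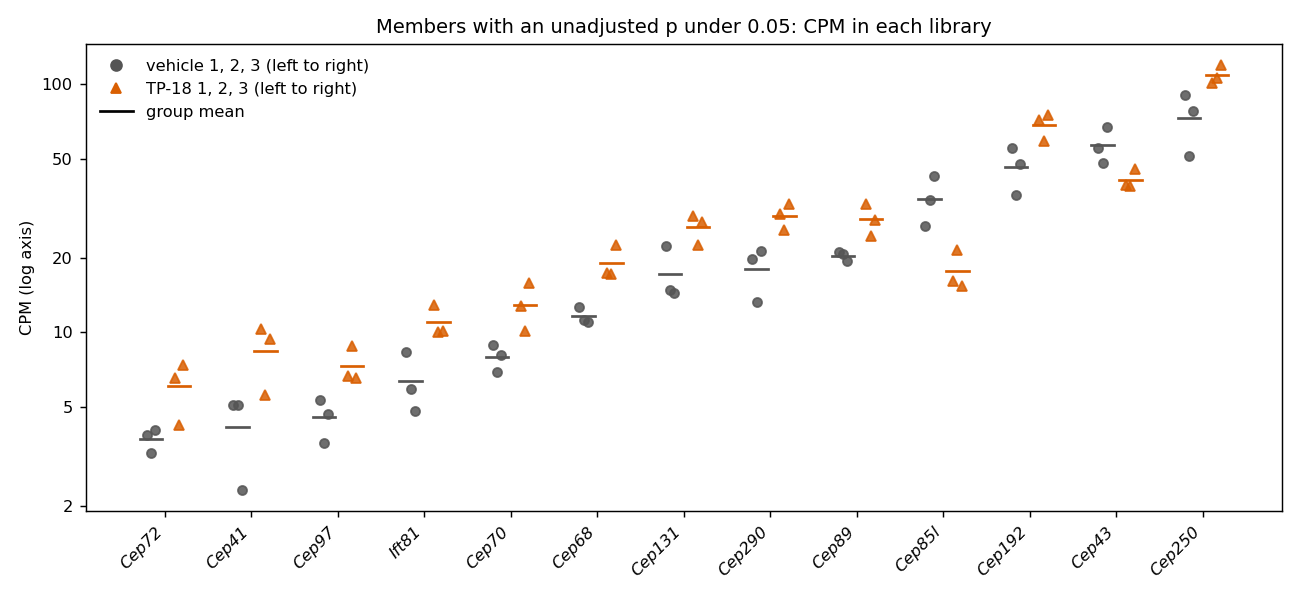
CPM (vertical log axis) in each library for 13 of the 14 members with an unadjusted p under 0.05: grey circles are vehicle 1, 2 and 3, orange triangles TP-18 1, 2 and 3, from left to right, and lines are group means. With TMM scaling the groups of all 13 genes, which were picked by p, are apart, with Cep85l and Cep43 lower and the other 11 higher. Of all tested genes, whatever their p, 11.6% were apart and higher and 11.7% apart and lower with TP-18.

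The 8 genes of centriolar satellites, the ciliary base and the axoneme had a median of 0.55 on the log2 scale, with 5 genes apart and higher and 1 apart and lower, beside 11.6% and 11.7% of all genes. Cep290, a transition zone and satellite protein whose loss causes ciliopathies, lies at chr10:100487558-100574840 on the plus strand. It was at 19.7, 13.3 and 21.2 CPM with vehicle and 29.8, 25.8 and 33.0 CPM with TP-18. The lowest TP-18 library, TP-18 2, was above the highest vehicle library, vehicle 3, with a log2 fold change of 0.71 ± 0.21 (SE) and an adjusted p of 0.210. Exons of 4930430F08Rik overlap 881 of its bases on the opposite strand.

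Cep131, a satellite protein (chr11:120064430-120086827, minus strand) was at 22.2, 14.8 and 14.3 CPM with vehicle and 29.5, 22.5 and 27.8 CPM with TP-18. Vehicle 1 came within a small distance of TP-18 2, and the groups did not overlap, with a log2 fold change of 0.63 ± 0.22 (SE) and an adjusted p of 0.238.

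Cep43 (named Fgfr1op in GENCODE M21), a protein of the centriole and ciliary base also called FOP, was lower with TP-18. It lies at chr17:8165501-8196804 on the plus strand and was at 55.2, 48.2 and 67.1 CPM with vehicle and 39.3, 38.7 and 45.5 CPM with TP-18. With TMM scaling every TP-18 library was below every vehicle library, with a log2 fold change of -0.47 ± 0.16 (SE) and an adjusted p of 0.238. With library totals the change was -0.29 and no longer had an unadjusted p under 0.05, and the FPKM values overlapped, at 14.2 in TP-18 3 and 13.1 in vehicle 2. Its close relative Cep20 (Fopnl in GENCODE M21) overlapped between groups, at 15.7 to 21.7 CPM with vehicle and 16.4 to 19.6 CPM with TP-18 and a log2 fold change of -0.01 ± 0.18. Of the rest of the role group, Cep19 was at 2.38 to 4.02 CPM with vehicle and 4.50 to 6.03 CPM with TP-18 with groups apart, and Cep162 was at 15.3 to 26.6 CPM with vehicle and 21.9 to 25.3 CPM with TP-18 with groups that overlapped.

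Cep41, needed for glutamylation of ciliary tubulin, had the highest fold change of all members with TP-18. It lies at chr6:30653457-30693749 on the minus strand and was at 5.10, 5.09 and 2.31 CPM with vehicle and 10.3, 5.59 and 9.39 CPM with TP-18. TP-18 2 was only just above vehicle 1 and vehicle 2, and vehicle 3 was far below them, with a log2 fold change of 1.01 ± 0.38 (SE) and an adjusted p of 0.259. Cep112 was at 5.29 to 8.42 CPM with vehicle and 8.46 to 13.1 CPM with TP-18, with a log2 fold change of 0.52 ± 0.27 (SE) and an adjusted p of 0.382. These are the 2 CEP genes whose promoter window holds an X-box, the motif bound by RFX factors upstream of many ciliary genes, and their sequences are shown for that reason, in the direction of transcription with the X-box in capitals (RefSeq, GRCm38.p6).
Cep41, chr6:30693836-30693910, minus strand: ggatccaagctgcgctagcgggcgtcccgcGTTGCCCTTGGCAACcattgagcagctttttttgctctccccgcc
Cep112, chr11:108425016-108425069, plus strand: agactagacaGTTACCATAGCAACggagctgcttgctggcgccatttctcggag
Their X-boxes begin 131 and 240 bases upstream of the RefSeq start site, and Cep112 holds a second match that begins 84 bases upstream. The windows searched run from 250 bases before to 50 after the start, on both strands, and 50 of the 59 members have one. A gene was counted for a motif where any of its windows held a match. An X-box was found for 2 of 31 CEP genes, 1 of 11 IFT genes (Ift57) and 1 of 8 BBS genes (Bbs1) with a window. The share was 1.93% of 10137 tested genes with a window. TTTGAA, the CHR element of cell cycle promoters, was found for 9 of 31 CEP, 0 of 11 IFT and 0 of 8 BBS genes, against 14.6%. CCAAT was found for 15, 8 and 3, against 43.2%. TTTCGCGC or TTTGGCGC, letters of E2F sites, were in the windows of Cep63 and Ift27, against 1.75% of genes. No match of one motif overlapped another in these windows. A match describes the letters in the window and not binding.

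For the 6 genes of procentriole assembly the median log2 fold change was 0.34, with 4 of them apart and higher with TP-18, beside 11.6% of all genes. Cep192, the scaffold that recruits mitotic kinases and PLK4 to the centrosome, was at 55.4, 35.6 and 47.6 CPM with vehicle and 71.7, 59.1 and 75.2 CPM with TP-18. Vehicle 2 was the lowest library, and the lowest TP-18 library lay above the highest vehicle library. It had a log2 fold change of 0.57 ± 0.19 (SE) and an adjusted p of 0.230. Cep152, which brings PLK4 to the parent centriole with Cep192 and Cep63, was at 14.97 to 23.5 CPM with vehicle and 24.4 to 32.1 CPM with TP-18, and Cep63 at 17.1 to 18.8 CPM with vehicle and 16.2 to 18.8 CPM with TP-18. Cep152 groups were apart and Cep63 groups overlapped, with log2 fold changes of 0.41 ± 0.22 and -0.09 ± 0.15. Cep57 was at 29.7 to 32.4 CPM with vehicle and 35.9 to 40.2 CPM with TP-18 with groups apart, whereas in Cep57l1 vehicle 3 stood alone at 2.78 CPM and the other 5 libraries lay between 8.36 and 9.86 CPM.

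Of the 9 genes of centriole length and structure, 7 lay above 0 and the median was 0.27. Cep97 (chr16:55899888-55934855, minus strand), which caps centrioles together with CP110, was at 5.35, 3.58 and 4.70 CPM with vehicle and 6.68, 8.78 and 6.55 CPM with TP-18. The groups were apart, and TP-18 2 was highest, with a log2 fold change of 0.69 ± 0.26 (SE) and an adjusted p of 0.262. Cep78, the other gene of this role whose groups were apart, was at 6.02 to 7.80 CPM with vehicle and 8.03 to 11.5 CPM with TP-18 with a log2 fold change of 0.45 ± 0.23. Cep135, a cartwheel protein, was at 16.04 to 26.8 CPM with vehicle and 21.9 to 31.3 CPM with TP-18, and Cep295, needed for centriole-to-centrosome conversion, at 21.1 to 30.4 CPM with vehicle and 30.1 to 43.9 CPM with TP-18, both with groups that overlapped. Cep295 shares 3099 exonic bases with genes on the other strand. Cep350, Cep120, Cep76, Cep44 and Cep295nl had log2 fold changes from -0.32 (Cep295nl) to 0.27 (Cep44).

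Of the 6 appendage genes, 4 lay above 0, with a median of 0.16. Cep89 (chr7:35397035-35438689, plus strand), of the distal appendages that dock the centriole to the membrane, was at 21.1, 20.7 and 19.3 CPM with vehicle and 32.9, 24.3 and 28.3 CPM with TP-18. The vehicle libraries were nearly equal and all TP-18 libraries were above them, with a log2 fold change of 0.48 ± 0.16 (SE) and an adjusted p of 0.232. Cep164, which recruits the kinase that starts cilium assembly, was at 20.7 to 33.1 CPM with vehicle and 34.4 to 40.3 CPM with TP-18, also apart, with a log2 fold change of 0.41 ± 0.19. Cep83, the base of the distal appendage and the highest CEP gene per length, was at 79.6, 66.4 and 69.5 CPM with vehicle and 59.7, 47.1 and 74.7 CPM with TP-18. TP-18 3 lay within the vehicle range and the other TP-18 libraries below it, with a log2 fold change of -0.25 ± 0.18 (SE) and an adjusted p of 0.534. The subdistal proteins Cep128, Cep170 and Cep170b overlapped between groups, with log2 fold changes of 0.19 ± 0.31, 0.14 ± 0.18 and -0.03 ± 0.17, and Cep170b was above 0 with library totals as scaling.

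Cep55, a midbody protein of abscission, was at 35.1, 29.5 and 21.6 CPM with vehicle and 38.0, 29.1 and 54.1 CPM with TP-18. TP-18 3 was highest, while TP-18 2 lay among the vehicle libraries, with a log2 fold change of 0.49 ± 0.27 (SE) and an adjusted p of 0.405. It was 0.22 without TP-18 3 and 0.31 without vehicle 3. Cep95, whose role is less clear, was at 11.9 to 13.2 CPM with vehicle and 11.4 to 14.1 CPM with TP-18, and its groups overlapped.

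Among the IFT-A genes, Ift122 had the largest difference and was at 22.7, 12.1 and 9.39 CPM with vehicle and 26.7, 21.1 and 24.0 CPM with TP-18. Vehicle 1 overlapped the TP-18 group, and vehicle 2 and vehicle 3 were far below it, with a log2 fold change of 0.70 ± 0.32 (SE) and an adjusted p of 0.329. It was 1.13 without vehicle 1 and 0.45 without vehicle 3. Ift140 was at 24.9, 16.9 and 24.5 CPM with vehicle and 33.6, 25.6 and 29.8 CPM with TP-18. Its groups were apart by a narrow margin, with a log2 fold change of 0.43 ± 0.20 (SE) and an adjusted p of 0.339, and of 0.25 without vehicle 2. Ift43, the small IFT-A subunit and the highest IFT gene per length, was at 16.3 to 21.01 CPM with vehicle and 17.0 to 20.5 CPM with TP-18, with a log2 fold change of -0.01 ± 0.17 (SE) and an adjusted p of 0.983 and a value above 0 with library totals as scaling.

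The 7 IFT-B core genes had a median of 0.08. Ift81, which binds tubulin together with Ift74, is at chr5:122550204-122614518 on the minus strand and was at 8.36, 5.91 and 4.83 CPM with vehicle and 12.9, 10.0 and 10.2 CPM with TP-18. All TP-18 libraries were above all vehicle libraries, vehicle 3 being lowest, with a log2 fold change of 0.79 ± 0.26 (SE) and an adjusted p of 0.230, the lowest of the family. Its partner Ift74 overlapped between groups, at 18.8 to 22.5 CPM with vehicle and 19.9 to 24.2 CPM with TP-18, with a log2 fold change of 0.14 ± 0.16. Ift52, an organising subunit of the core, was at 30.2, 32.3 and 26.0 CPM with vehicle and 34.1, 34.8 and 37.5 CPM with TP-18. These groups were apart with a small difference, 0.27 ± 0.14. Ift88 was at 7.56 to 10.4 CPM with vehicle and 8.02 to 9.65 CPM with TP-18, Ift46 at 36.7 to 48.1 CPM with vehicle and 37.2 to 41.1 CPM with TP-18 and Ift27, a small GTPase, at 12.96 to 17.2 CPM with vehicle and 13.4 to 14.8 CPM with TP-18. Groups overlapped in all 3, and their log2 fold changes were 0.08, -0.08 and -0.07, the last 2 turning to 0.09 and 0.11 with library totals. Ift22, also a GTPase, had 0.04.

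The 4 peripheral IFT-B genes, which link the particle to the membrane and to its motor, all overlapped between groups. Of all tested genes, 11.6% were apart and higher and 11.7% apart and lower. Ift57 was at 38.3, 33.4 and 31.8 CPM with vehicle and 36.3, 28.5 and 25.05 CPM with TP-18. TP-18 2 and TP-18 3 were lowest, with a log2 fold change of -0.20 ± 0.18 (SE) and an adjusted p of 0.591, the lowest fold change of the family. An antisense gene, Gm15518, shares 225 of its exonic bases. Ift20, which also works at the Golgi, was at 12.2 to 15.2 CPM with vehicle and 14.8 to 17.6 CPM with TP-18, and Ift172 and Ift80 had log2 fold changes of 0.21 ± 0.19 and 0.25 ± 0.30.

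In the BBS family, 6 genes encode BBSome subunits. Bbs2 was at 26.7, 22.9 and 20.1 CPM with vehicle and 29.3, 35.2 and 18.2 CPM with TP-18. TP-18 3 was the lowest of all libraries and TP-18 2 the highest, with a log2 fold change of 0.25 ± 0.25 (SE) and an adjusted p of 0.651. Bbs4 was at 4.12, 3.27 and 6.35 CPM with vehicle and 4.79, 7.65 and 6.71 CPM with TP-18. Vehicle 3 lay within the TP-18 range, with a log2 fold change of 0.48 ± 0.33 (SE) and an adjusted p of 0.4998. It was 0.27 without vehicle 2 and 0.78 without vehicle 3, and 194 of its exonic bases overlap Adpgk. Bbs1 was at 1.04, 1.82 and 1.12 CPM with vehicle and 1.72, 1.57 and 2.46 CPM with TP-18, a level of 17 counts in the lowest library. Vehicle 2 was above 2 of the 3 TP-18 libraries, with a log2 fold change of 0.52 ± 0.42 (SE) and an adjusted p of 0.563. It was 0.80 without vehicle 2 and 0.31 without TP-18 3. Bbs5, Bbs7 and Bbs9 had log2 fold changes of -0.07 ± 0.25, -0.10 ± 0.23 and 0.07 ± 0.25, and Bbs5 and Bbs7 turned to 0.11 and 0.08 with library totals. The chaperonin-like genes Bbs10 and Bbs12 were at 1.19 to 2.71 CPM with vehicle and 2.29 to 2.75 CPM with TP-18 and at 2.91 to 5.53 CPM with vehicle and 3.80 to 4.86 CPM with TP-18, with log2 fold changes of 0.25 ± 0.39 and 0.12 ± 0.32.

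By library, the families did not follow a single pattern. Each library was summarised as the average over a family of log2(CPM + 0.5) after centring every gene on its 6 libraries. For CEP genes vehicle 1 was at -0.01, vehicle 2 at -0.29 and vehicle 3 at -0.13, while TP-18 1 was at 0.14, TP-18 2 at 0.06 and TP-18 3 at 0.22. Vehicle 2 held the lowest value of 18 of the 37 CEP genes and vehicle 3 that of 12. For IFT genes the same means were 0.07, -0.10 and -0.28 with vehicle and 0.24, 0.01 and 0.06 with TP-18, and vehicle 3 was lowest for 10 of 14. Vehicle 1 thus lay above TP-18 2 and TP-18 3 for IFT genes, and the BBS means ran from -0.18 in vehicle 2 to 0.15 in TP-18 2.

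**Figure D4:**
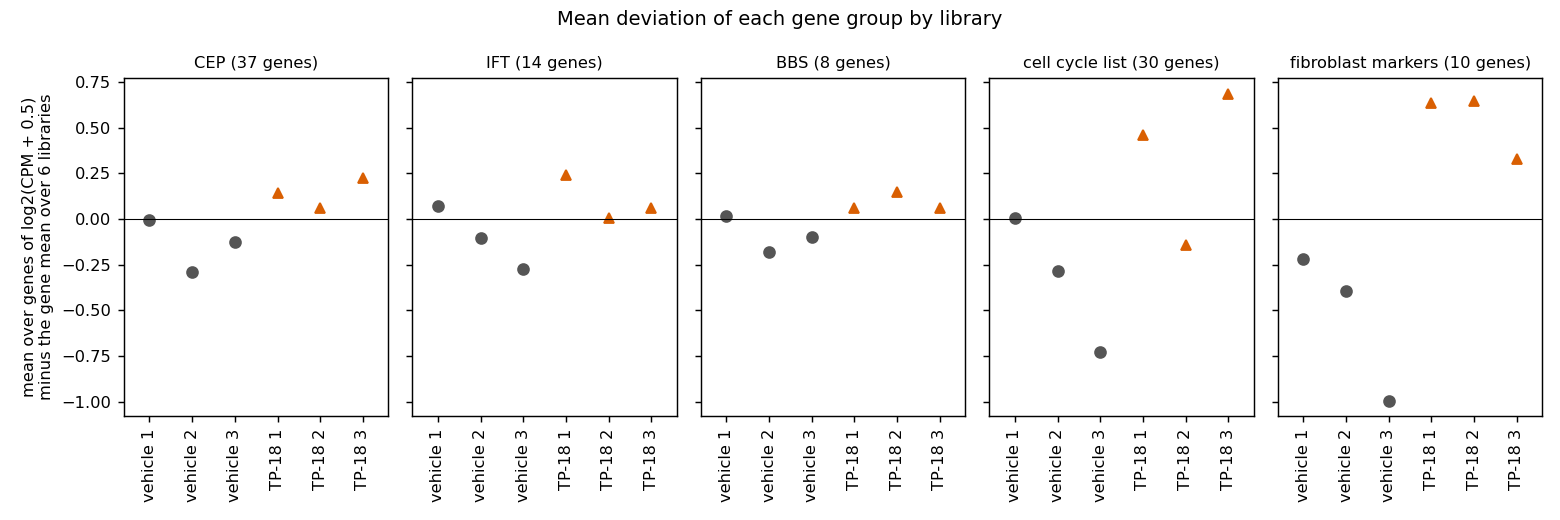
Average over the genes of each group of log2(CPM + 0.5), centred per gene on the 6 libraries (vertical axis), for each library (horizontal axis), in the CEP, IFT and BBS families and in the lists of 30 cell cycle genes and 10 fibroblast markers. CEP means are below 0 in all vehicle libraries and above 0 in all TP-18 libraries, with vehicle 2 lowest at -0.29, and cell cycle means run from -0.73 in vehicle 3 to 0.69 in TP-18 3.

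The values of cell cycle genes and of markers of other cells are given beside those of the families. All 30 cell cycle genes lay above 0 with a median of 0.69, and 19 were higher at an unadjusted p under 0.05, beside 7.56% of all genes. In 6 of the 30 the groups were apart, beside 11.6%, and 0 were called by edgeR and 2 by DESeq2 (Cenpf and Kif11), beside 1.30%. Their library means were 0.01, -0.28 and -0.73 with vehicle and 0.46, -0.14 and 0.69 with TP-18. The 10 fibroblast markers all lay above 0. Of them, 8 had an unadjusted p under 0.05, beside 7.56% of all genes, and 7 had groups apart, beside 11.6%. edgeR called 0 of the 10 and DESeq2 called 5, beside 1.30%. These markers summed to 757 to 1232 CPM with vehicle and 1537 to 1908 CPM with TP-18. Col1a1 was at 24.7 to 63.0 CPM with vehicle and 165 to 175 CPM with TP-18. Postn was at 2.18 to 5.79 CPM with vehicle and 11.1 to 16.9 CPM with TP-18. The 8 endothelial markers all lay above 0 and summed to 34.1 to 181 CPM with vehicle and 101 to 185 CPM with TP-18. Only 1 of the 8 (12.5%), Kdr, had an unadjusted p under 0.05 and groups apart, beside 7.56% and 11.6% of all genes. edgeR called 0 of the 8 and DESeq2 called Kdr higher (adjusted p of 9.13e-05), beside 1.30%. Vehicle 1 was lowest for 7 of the 8, and the mean of vehicle 2 (0.82) was above that of every TP-18 library. The 12 macrophage markers summed to 7455 to 13905 CPM with vehicle and 6531 to 10370 CPM with TP-18, with 3 of the 12 above 0 and Cd14 and Cd68 the lowest in p. These 2 (16.7%) were lower at an unadjusted p under 0.05 and had groups apart, beside 8.70% and 11.7% of all genes. edgeR called 0 of the 12 and DESeq2 called Cd14 lower (adjusted p of 1.91e-05), beside 2.73%. Above 0 lay 2 of 7 T and NK cell markers, 3 of 5 neutrophil markers and 1 of 4 epithelial markers that passed the filter. Of these T and NK cell markers, Cd3g was at 0 in TP-18 2, and Cd3d and Cd8a were at 0 in vehicle 2. Whether cycling cells or other cell types have a part in the values of the CEP, IFT and BBS genes was not tested.

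Other genes, mostly of the same structures, were listed by role. Of 20 genes of centriole duplication and structure under other names, 16 lay above 0, with a median of 0.38. In that list edgeR called 0 genes, 5 were higher at an unadjusted p under 0.05, beside 7.56% of all genes, and DESeq2 called 3 higher, beside 1.30%. Ccdc14, a satellite protein, was at 4.92, 8.05 and 5.42 CPM with vehicle and 15.7, 11.8 and 14.3 CPM with TP-18. Every TP-18 library was above every vehicle library, with a log2 fold change of 1.18 ± 0.25 (SE) and an adjusted p of 0.139 in edgeR and 0.00451 in DESeq2. Poc5, of the distal centriole, had a log2 fold change of 0.63 ± 0.15. Of 27 genes listed for the pericentriolar material, spindle pole and satellites, 22 lay above 0 with a median of 0.24. The 27 include Azi2 (-0.16 ± 0.12), which does not belong to these structures. At an unadjusted p under 0.05, 4 (14.8%) were higher, beside 7.56% of all genes. The lowest in p were Nek2 (0.72 ± 0.20), the kinase that releases the centriole linker, and Tubgcp6 (0.62 ± 0.21), of the gamma-tubulin ring. edgeR and DESeq2 called 0 of these 27, beside 0.110% of all genes with edgeR and 1.30% higher and 2.73% lower with DESeq2.

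The transition zone list also held Sclt1 and Fbf1, of the distal appendages. Of its 21 genes, 12 lay above 0 with a median of 0.18. At an unadjusted p under 0.05, 3 (14.3%) were higher, beside 7.56% of all genes. These were Rpgrip1l (0.83 ± 0.25), Cc2d2a (0.66 ± 0.24) and Fbf1 (0.44 ± 0.16). The list of IFT subunits under other names also held Tulp3, which is not a subunit. Of its 9 tested genes, 7 lay above 0 with a median of 0.43. At an unadjusted p under 0.05, 3 (33.3%) were higher, beside 7.56% of all genes. Wdr19, an IFT-A subunit, was at 14.9, 14.3 and 12.96 CPM with vehicle and 24.6, 27.0 and 18.1 CPM with TP-18. Its groups were apart, with a log2 fold change of 0.73 ± 0.19 (SE) and an adjusted p of 0.191, and Ttc26, of IFT-B, had 0.84 ± 0.30. Of 13 ciliary motor genes, 7 lay above 0. At an unadjusted p under 0.05, 1 was higher and 1 lower (7.69% each), near the 7.56% and 8.70% of all genes. Kif3b, of the anterograde kinesin, had 0.51 ± 0.20, and Dynll1, a dynein light chain shared with cytoplasmic dynein, had -0.52 ± 0.16.

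Another list held BBSome and chaperonin-like subunits under other names, and further genes that are not such subunits. Its 9 genes were Ttc8, Mkks, Arl6, Bbip1, Lztfl1, Wdpcp, Sdccag8, Rab3ip and Rabl2. Of these, 5 lay above 0, with a median of 0.10 and none at an unadjusted p under 0.05. Bbip1 and Sdccag8 had log2 fold changes of -0.32 ± 0.20 and 0.34 ± 0.23. The list of the ciliary membrane and Hedgehog signalling also held the RFX factor genes Rfx1, Rfx2, Rfx3, Rfx5 and Rfx7. Of its 17 tested genes, 9 lay above 0. At an unadjusted p under 0.05, 4 were higher and 4 lower (23.5% each), beside 7.56% and 8.70% of all genes. The 4 lower were Arl13b, Rab11a, Rfx2 and Rfx3. Rfx2, which encodes an RFX factor that binds X-boxes, was at 31.2, 29.0 and 35.0 CPM with vehicle and 17.9, 11.4 and 16.5 CPM with TP-18. Every TP-18 library was below every vehicle library, with a log2 fold change of -1.05 ± 0.20 (SE) and an adjusted p of 0.121 in edgeR and 0.000902 in DESeq2. Smo, the Hedgehog signal transducer of the ciliary membrane, was at 78.6, 71.2 and 65.9 CPM with vehicle and 103, 92.3 and 92.4 CPM with TP-18. Its groups were apart in the other direction, with a log2 fold change of 0.42 ± 0.13 (SE) and an adjusted p of 0.219. In these 5 lists edgeR called 0 genes, beside 0.110% of all genes. DESeq2 called Rfx2 alone, lower, beside 1.30% of all genes called higher and 2.73% lower. With library totals as scaling, the counts above 0 became 19 of 20, 27 of 27, 18 of 21, 8 of 9, 11 of 13, 8 of 9 and 9 of 17 for these lists in the order given.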

How the data were processed

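RNA was sequenced in 3 vehicle and 3 TP-18 libraries, grouped by the sample labels. Whole-number read counts per gene and FPKM values were deposited as separate tables. The submitters' processing notes list the tools fastp, HISAT2 and HTSeq and the build GRCm38. Versions, annotation release and use of strand are not given in the sources used here. Each deposited FPKM value equals the count divided by total count and by 1 length per gene (largest relative spread of that length 1.41e-13), so they carry no TMM scaling.

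The test was run on the counts with edgeR 4.0.16 (R 4.3.3): filterByExpr (minimum count 10, minimum total 15), TMM scaling, the quasi-likelihood test of TP-18 against vehicle without covariates, and Benjamini-Hochberg adjustment over 12721 genes, at 0.05. The SE is the absolute log2 fold change over the square root of F. TMM factors were 0.924 to 0.962 for vehicle and 1.05 to 1.07 for TP-18. Alternatives used RLE scaling, library totals, no filter, DESeq2 1.42.0, limma 3.58.1 on log2(FPKM + 1) and log2(FPKM + 0.1), a replicate block, each library left out, and GC and length trends (mgcv 1.9.3). The code was tested on simulated data. Within groups, log2 CPM correlated at 0.961 to 0.982 and the chi-square per degree of freedom was 27.9 to 80.0, well past sampling noise. Each library was counted as a sample, but this spread does not show that the libraries come from separate mice.

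Positions came from GENCODE M21 (all 59 members matched; 16614 genes by Entrez identifier, 247 by symbol, 330 not matched), and promoter windows from RefSeq on GRCm38.p6. Members and lists were chosen with earlier results of these data known. Genes were named in full where an unadjusted p was under 0.05 with groups apart, where FPKM was among the 4 highest or 2 lowest of a family, or where the fold change was among the 2 largest in each direction with a mean of at least 1 CPM. From each other list up to 2 genes with the lowest p were named, and further genes where needed to show what a list held. Tables were made with Python 3.11.15 and pandas 2.3.3, and plots with matplotlib 3.10.9. For 1 CEP member, counted in the totals, single-gene results are not reported here.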

Additional observations from a re-analysis of the deposited data

How the results depend on the processing

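Over all genes, 14 were called, against 4 with library totals, 27 without the filter, 505 with DESeq2, 2 with limma on either FPKM scale, 3 with the replicate block and 0 to 8 with a library left out. Members called were 0 throughout, except 1 with DESeq2 (Cep85l, log2 fold change -0.98). The deviations of same-numbered libraries correlated at 0.202, 0.391 and -0.149, and those of differently numbered libraries at -0.619 to 0.508. With 3 libraries per group, these values cannot decide whether replicate numbers pair the libraries. With the replicate block the CEP, IFT and BBS medians were 0.38, 0.16 and 0.18.

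The CEP median of 0.38 was 0.56 with library totals, 0.53 on log2(FPKM + 0.1) and 0.22 to 0.43 with a library left out. For IFT (0.16) these were 0.34, 0.34 and 0.082 to 0.22, and for BBS (0.19) 0.36, 0.33 and 0.069 to 0.33, with 0.10 at a summed count of at least 300. CEP genes at an unadjusted p under 0.05 (13) were 21 with library totals and 6 to 12 with a library left out. IFT genes (1) were 4 with library totals, 2 without the filter, 2 with DESeq2, 5 on either FPKM scale, 3 with the replicate block and 0 to 2 with a library left out, and BBS genes (0) were 0 to 1, with 1 without vehicle 3 and 1 without TP-18 3. IFT genes with groups apart (3) became 6 with library totals. These counts of unadjusted p and of groups apart were added after seeing the data. The cause of these changes was not tested.

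With library totals, log2(FPKM + 1) and log2(FPKM + 0.1), Bbs5 was 0.11, 0.078 and 0.099, Bbs7 0.083, 0.068 and 0.093, Cep170b 0.15, 0.14 and 0.15, Ift27 0.11, 0.11 and 0.11, Ift43 0.16, 0.16 and 0.17, and Ift46 0.093, 0.090 and 0.10. With a library left out, the ranges of 19 of the 59 members crossed 0. Among the members named by the rule these were Bbs12 -0.085 to 0.37, Bbs5 -0.24 to 0.063, Bbs7 -0.25 to 0.023, Bbs9 -0.10 to 0.31, Cep170b -0.17 to 0.093, Ift27 -0.17 to 0.036, Ift43 -0.13 to 0.069, Ift46 -0.18 to 0.014 and Ift88 -0.032 to 0.23. The other 10 were Cep350 (-0.31 to 0.23), Cep128 (-0.099 to 0.41), Bbs10 (-0.042 to 0.47), Cep170, Cep162, Cep76, Cep120, Cep20, Cep95 and Ift22. All 14 members with an unadjusted p under 0.05 kept their sign in all 6 leave-outs, and 3 of them (Cep85l, Cep68 and Cep290) kept that p under 0.05. Counts of the lowest members, such as Bbs1, limit their precision.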
